A study of Mus musculus with 12 samples.

Results

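The genes examined here are 8 components of the machinery that shows peptides from inside a cell on its surface: B2m, H2-K1, H2-D1, Psmb8, Psmb9, Tap1, Tapbp and Irf1. They were chosen by name, as a pathway, but with earlier results of these data known. All 8 were found on 1 line each among the 55367 gene symbols of every sample. RNA had been sequenced from single muscle fibers of the extensor digitorum longus, a fast hindlimb muscle of the C57BL/6J mouse, in 3 groups of 4 samples. The Young group came from mice of 3 to 4 months. The other 2 groups came from aged mice of 26 to 28 months, whose fibers were loaded with Fluo-4, a dye that fluoresces when it binds calcium, and sorted by eye under a fluorescence stereomicroscope into fibers with ordinary staining (Fluo-4 normal) and fibers with aberrant staining (Fluo-4 abnormal). The fibers were freed with collagenase, so cells that cling to a fiber could have been carried along. How many mice and fibers made up a sample is not given in the sources used here, and p-values therefore measure the spread between these samples only.

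In the class I pathway, proteins in the cytosol are cut by the proteasome, the peptides are pumped into the endoplasmic reticulum by the TAP transporter, and chaperones load them onto a heavy chain that is held by a small invariant partner, B2m. The loaded complex travels to the surface, where CD8 T cells inspect it. Interferons raise most of these genes, and resting skeletal muscle is known for low amounts of class I on its fibers.

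Of the 8 genes, 6 lie on chromosome 17 in and near the mouse major histocompatibility complex (GRCm39, GENCODE annotation). H2-K1 occupies chr17:34214987-34219321 on the minus strand and H2-D1 chr17:35481691-35486475 on the plus strand. Psmb9 (chr17:34400960-34406738), Tap1 (chr17:34405996-34416199) and Psmb8 (chr17:34416690-34420428) follow each other within 19469 bp, and Tapbp lies at chr17:34134873-34148267. B2m is on chromosome 2 (chr2:121977957-121983594) and Irf1 on chromosome 11 (chr11:53660812-53669200). Libraries of this kit do not keep the strand, so reads from the 743 bp of exon that Psmb9 and Tap1 share on opposite strands could not be told apart. Tapbp shares 923 bp of exon with Zbtb22 on its own strand, and Irf1 shares 1467 bp with the unclassified transcript Gm17334 on the other. H2-K1 and H2-D1 share 855 and 723 bp of exon with antisense transcripts that the files do not list under the names used in that annotation. The transcripts of H2-K1 and H2-D1 were 88.2% identical over 1513 aligned bases, and none of the 8 had a copy at another gene that was at least 95% identical over at least 50% of its transcript.

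Short stretches from the windows before the RefSeq start sites of the 3 genes with the clearest differences are shown because each holds a pair of GAAA-type half-sites, the kind of element to which interferon regulatory factors bind. Each was read from the RefSeq table of promoters (GRCm38.p6) and placed on GRCm39 by exact match. GENCODE places transcript starts further out for several of these genes, so the B2m and H2-D1 stretches lie within the gene bounds given above, in annotated exon sequence, while that of H2-K1 lies outside its gene. Capitals mark the 9 matching bases, and each line runs 5′ to 3′ on the strand of its gene.
B2m, chr2:121978019-121978048, plus strand: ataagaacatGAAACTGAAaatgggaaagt
H2-K1, chr17:34219392-34219421, minus strand: atctccacagTTTCACTTCtgcacctaacc
H2-D1, chr17:35481910-35481939, plus strand: atctcctcagTTTCACTTCtgcacctaacc
The stretches of H2-K1 and H2-D1 had 29 of 30 bases in common. In the 250 bases before the RefSeq start, the motif GAAANNGAA, searched on both strands, was present in B2m alone of the 8 genes, and in 7.15% of 32536 such windows of all genes. The opposite order of the half-sites, GAANNGAAA, was searched after the promoters had been seen, and was present in H2-K1 and H2-D1 alone of the 8 and in 6.35% of all windows. CCAAT was present in the windows of 7 of the 8, Psmb8 being the exception, and in 33.8% of windows. Of these windows, 211 of the 250 bases for B2m and all bases for each of the other members but H2-K1 lay in GENCODE exons of the gene or of one that overlaps it. These are matches of letters in a window and show nothing about binding in these fibers.

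The 8 genes fell into 3 tiers of expression. B2m and the heavy chains H2-K1 and H2-D1 were the highest, with group means of 24.9 to 72.0 TPM (transcripts per 1000000, a level corrected for transcript length). Tapbp and Irf1 were intermediate, at group means of 8.30 to 14.0 TPM. Psmb8, Psmb9 and Tap1 had group means of 0.153 to 1.57 TPM. In the Young fibers, B2m stood at or above 87.5% of the 14428 genes tested and Tap1 at or above 25.9% of them. Read totals are not part of TPM, so the depth behind these levels is unknown and no counting interval is given.

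**Figure D1:**
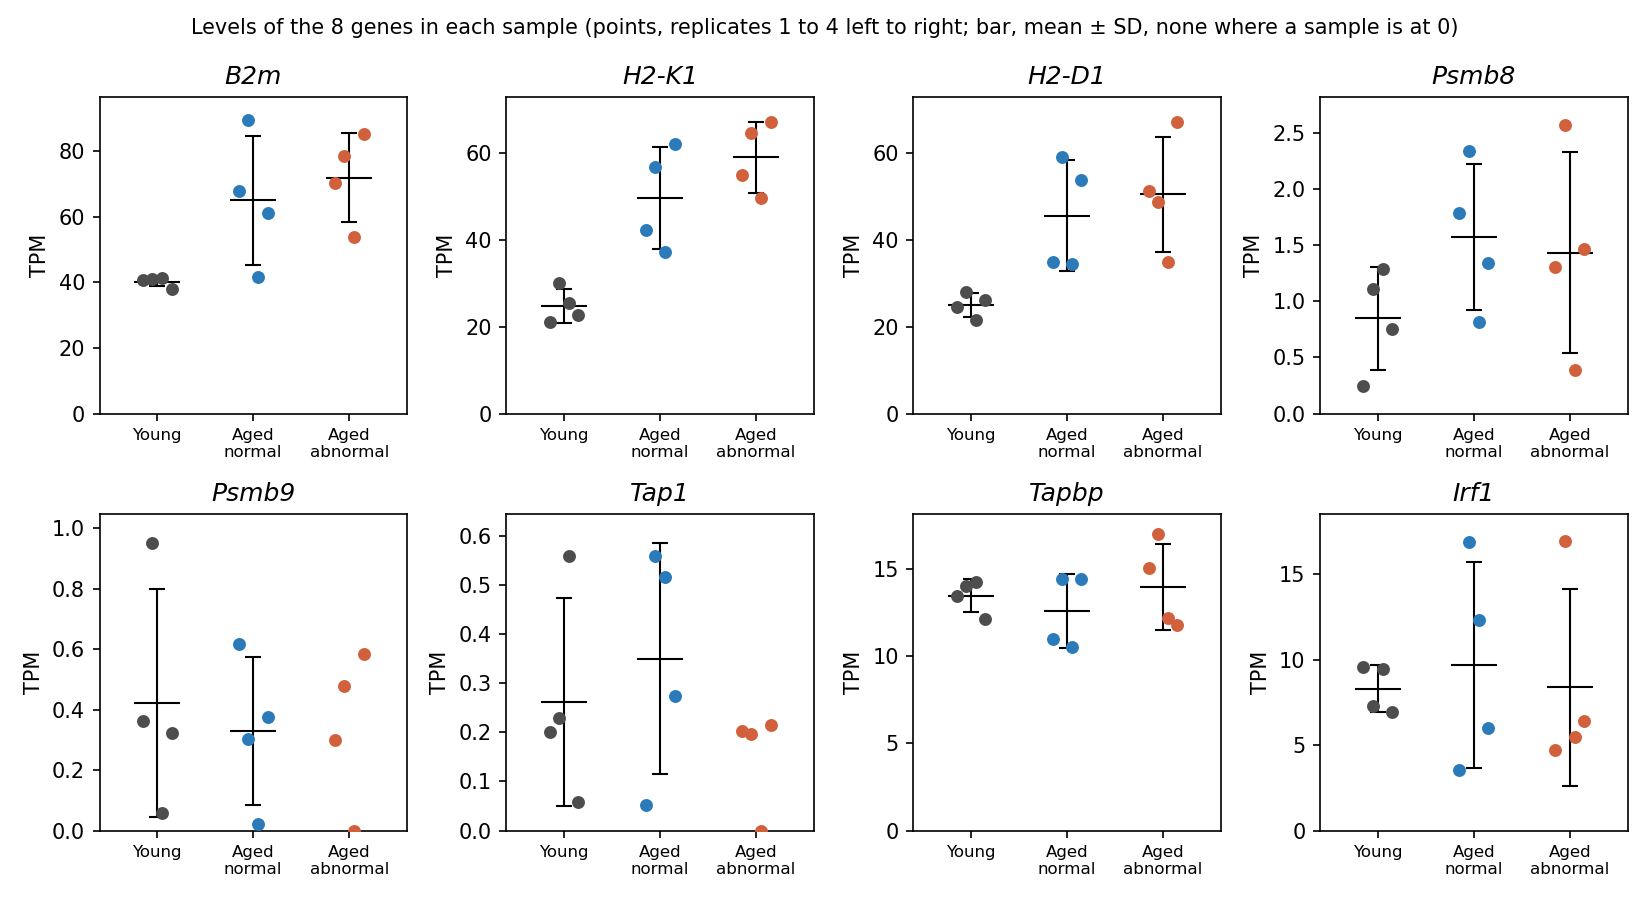
Level of each of the 8 genes in TPM (vertical axes, each from 0) in the 4 Young, 4 aged Fluo-4 normal and 4 aged Fluo-4 abnormal samples, with points for samples and bars for the mean ± SD. B2m, H2-K1 and H2-D1 lie higher in every aged sample than in every Young sample, and the other 5 genes overlap between all groups.

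H2-K1, the K heavy chain that carries the peptide, was measured at 21.0, 30.0, 25.6 and 22.8 TPM in the Young samples. It was at 42.3, 56.8, 37.3 and 62.2 TPM in the Fluo-4 normal fibers of aged mice. In the Fluo-4 abnormal fibers it was at 55.0, 64.6, 49.7 and 67.2 TPM. All 8 aged samples lay above all 4 Young samples, and the lowest aged sample was a Fluo-4 normal one. Differences are given as log2(TPM + 1) with the standard error, and p-values come from limma with Benjamini-Hochberg adjustment over all 14428 genes. H2-K1 was higher than in Young fibers by 1.22 ± 0.16 in the Fluo-4 abnormal group (a fold of 2.33 in TPM + 1, adjusted p = 0.000666) and by 0.95 ± 0.16 in the Fluo-4 normal group (a fold of 1.94, adjusted p = 0.0133).

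H2-D1, the D heavy chain, was at 24.5, 28.01, 21.5 and 26.1 TPM in Young fibers. The Fluo-4 normal samples had 34.7, 59.0, 34.3 and 53.8 TPM. The Fluo-4 abnormal samples had 51.2, 48.5, 34.9 and 67.1 TPM. The aged samples again lay wholly above the Young samples, but with a wide spread in both aged groups. The difference from Young was 0.95 ± 0.20 in the Fluo-4 abnormal group (adjusted p = 0.0114). In the Fluo-4 normal group it was 0.80 ± 0.20 (adjusted p = 0.0774) and did not pass the threshold of 0.05, although it passed with a filter of 1 TPM (adjusted p = 0.0390), with median-ratio scaling (0.0469) and with sample quality weights (0.0220). Over its 21 alternatives the adjusted p ran from 0.0220 to 0.215.

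B2m, the light chain without which heavy chains are not stable at the surface, was nearly constant in Young fibers, at 40.7, 41.0, 41.3 and 38.1 TPM. The Fluo-4 normal samples had 67.8, 89.6, 41.8 and 61.1 TPM. The Fluo-4 abnormal samples had 70.2, 78.5, 53.9 and 85.5 TPM. Replicate 3 of the Fluo-4 normal group was just above the highest Young sample, and the rest of the aged samples were well above it. B2m was higher than in Young fibers by 0.80 ± 0.19 in the Fluo-4 abnormal group (adjusted p = 0.0187). The call was lost without Young replicate 4 (adjusted p = 0.0600), Fluo-4 abnormal replicate 2 (0.0560) or Fluo-4 abnormal replicate 4 (0.0590), in a range of 0.00377 to 0.0600 over 21 alternatives. In the Fluo-4 normal group the difference was 0.63 ± 0.19 (adjusted p = 0.132), and without Fluo-4 normal replicate 3 it was 0.82 (adjusted p = 0.0314, in a range of 0.0314 to 0.275 over 21 alternatives).

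Against the Young fibers, then, 3 of the 8 genes rose in the Fluo-4 abnormal group and none fell. Of all 14428 genes tested, 8.50% were called in that comparison and 6.09% were called as higher. In the Fluo-4 normal group 1 of the 8 rose, H2-K1, where 1.15% of all genes were called and 0.561% were called as higher. The same 3 genes lay above every Young sample in each aged group, and groups failed to overlap in this direction for 12.2% of all genes in the Fluo-4 abnormal group and 3.03% in the Fluo-4 normal group. The median difference of the 8 genes was 0.20 in the Fluo-4 abnormal group, where that of all genes was 0.07, and 0.28 in the Fluo-4 normal group, where that of all genes was -0.02. Both comparisons used the same 4 Young samples. In bulk samples a change in the number of cells of a type cannot be told apart from a change of RNA per cell.

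The other 5 genes did not pass the test in any of the 3 comparisons. Psmb8, the inducible subunit that replaces Psmb5 in the immunoproteasome, was at 0.247 to 1.29 TPM in Young, 0.811 to 2.34 in Fluo-4 normal and 0.389 to 2.57 in Fluo-4 abnormal fibers. Its difference from Young was 0.36 ± 0.28 in Fluo-4 abnormal fibers (95% interval -0.25 to 0.96, adjusted p = 0.499). In Fluo-4 normal fibers it was 0.48 ± 0.28 (95% interval -0.13 to 1.08, adjusted p = 0.525). Both intervals hold 0, and the second also holds the difference of H2-K1 in the same comparison, so neither a change nor its absence was shown for Psmb8.

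Psmb9, the inducible partner of Psmb6, was at 0.057 to 0.951 TPM in Young and 0.022 to 0.617 TPM in Fluo-4 normal fibers. In Fluo-4 abnormal fibers it was at 0.301, 0.479, 0 and 0.584 TPM. Tap1, a subunit of the peptide transporter, was at 0.059 to 0.558 TPM in Young and 0.051 to 0.558 TPM in Fluo-4 normal fibers. In Fluo-4 abnormal fibers it was at 0.202, 0.196, 0 and 0.215 TPM. Replicate 3 of the Fluo-4 abnormal group was listed at 0 for both. On the log2(TPM + 1) scale, differences between such low levels are compressed, and the adjusted p-values of both genes in the 3 comparisons lay between 0.350 (Tap1, Fluo-4 abnormal against Fluo-4 normal) and 0.988.

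Tapbp, or tapasin, which holds an empty heavy chain beside the transporter, was at 12.1 to 14.3 TPM in Young, 10.5 to 14.4 in Fluo-4 normal and 11.8 to 17.0 in Fluo-4 abnormal fibers. Its difference from Young was 0.04 ± 0.14 in the Fluo-4 abnormal group (95% interval -0.26 to 0.33), which lies below the interval of H2-K1 in the same comparison (0.87 to 1.57). Tapbp changed sign to -0.06 under median-ratio scaling.

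Irf1, a transcription factor that interferon induces and that drives class I genes, was at 9.56, 7.28, 9.43 and 6.95 TPM in Young fibers. The Fluo-4 normal samples had 3.54, 16.9, 12.3 and 6.00 TPM. The Fluo-4 abnormal samples had 4.71, 17.0, 5.49 and 6.40 TPM. Replicate 2 was the highest in both aged groups and replicate 1 the lowest. The difference between Fluo-4 abnormal and Young fibers was -0.14 ± 0.41 (95% interval -1.02 to 0.74, adjusted p = 0.878), the widest interval of the 8 genes.

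**Figure D2:**
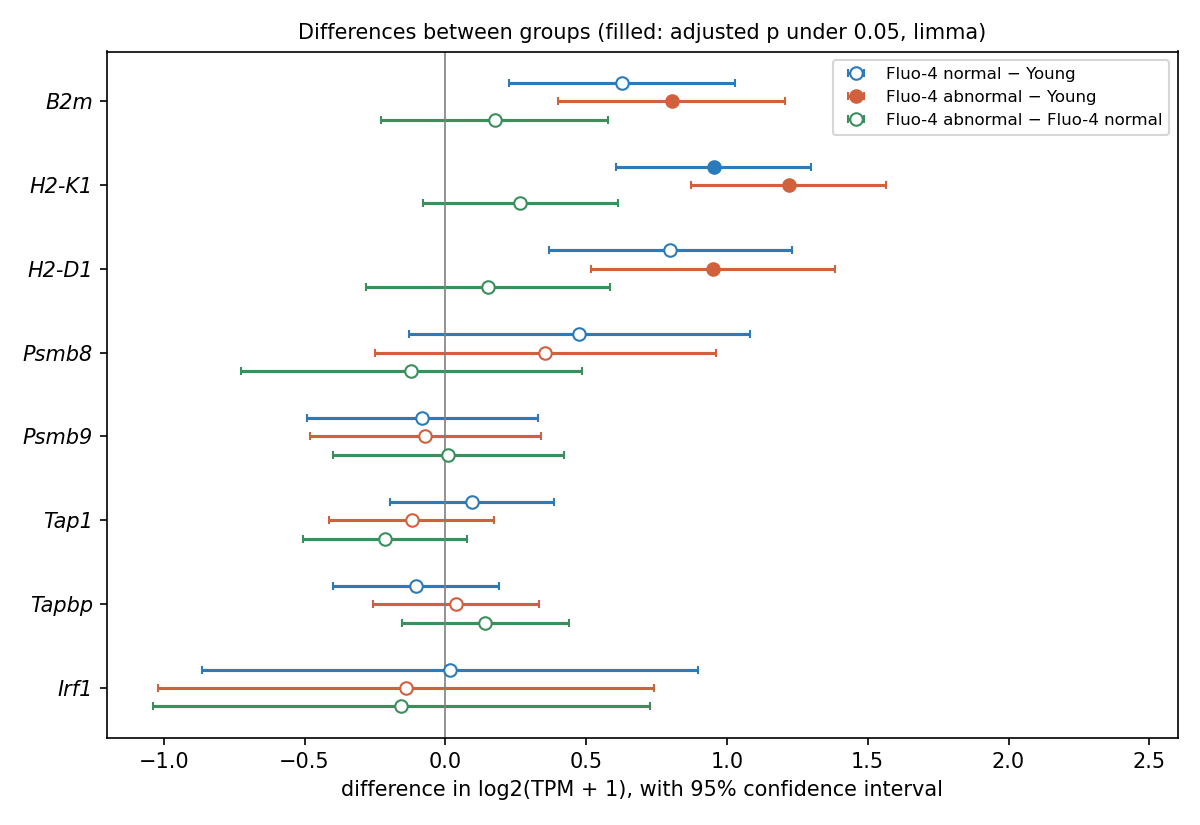
Difference in log2(TPM + 1) between groups for the 8 genes (horizontal axis), with 95% confidence intervals from limma and filled points where the adjusted p is under 0.05. H2-K1, H2-D1 and B2m are filled for Fluo-4 abnormal against Young, H2-K1 alone for Fluo-4 normal against Young, and no gene for Fluo-4 abnormal against Fluo-4 normal.

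Between the Fluo-4 abnormal and Fluo-4 normal fibers of aged mice, none of the 8 genes was called by limma, and none had an unadjusted p under 0.05. Of all genes, 9.35% were called in this comparison and 7.36% were called as higher. Of these calls 1062 were higher and 287 lower, and with median-ratio scaling 411 were higher and 527 lower. No member lay wholly higher in the Fluo-4 abnormal samples, as 11.5% of all genes did. H2-K1 differed by 0.27 ± 0.16 (95% interval -0.08 to 0.61, adjusted p = 0.322) and was higher in 4 of 4 pairs of samples with the same replicate number, by 0.11 to 0.40. This limma model did not use the pairs. With the replicate number as a block, limma gave H2-K1 an adjusted p of 0.0542, the lowest of 22 alternatives and still above the threshold. B2m differed by 0.17 ± 0.19 (95% interval -0.23 to 0.58) and H2-D1 by 0.15 ± 0.20 (95% interval -0.28 to 0.59), each higher in 3 of 4 pairs, and both had the opposite sign under median-ratio scaling (-0.01 for B2m and -0.03 for H2-D1). The upper limit for H2-K1 lies below the lower limit of its difference between Fluo-4 abnormal and Young fibers (0.87). Psmb8 differed by -0.12 ± 0.28, Tap1 by -0.21 ± 0.14, Tapbp by 0.14 ± 0.14 and Irf1 by -0.16 ± 0.41. Psmb9 differed by 0.01 ± 0.19, and it and Tapbp also changed sign under median-ratio scaling.

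Across the 12 samples, B2m, H2-K1 and H2-D1 followed each other closely, with Pearson correlations of log2(TPM + 1) of 0.88 to 0.93. These points share group and library, so the values are a description with no test. Irf1 had correlations of 0.06, 0.00 and 0.06 with B2m, H2-K1 and H2-D1, and of 0.64 with Tap1. The genes of at least 5 TPM whose pattern was most like the mean of the 8 members were Kctd2 (r = 0.88), Plk2 (0.87), Tsc22d1 (0.87), Slc9a3r2 (0.87) and Rbms1 (0.86), of 5969 genes searched over the 12 samples.

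Transcripts of the constitutive catalytic proteasome subunits far exceeded those of the inducible subunits that replace them. Psmb5 was at 285 to 410 TPM over the 12 samples, and Psmb8, the subunit that takes its place, was at 0.500 ± 0.208% (SD, n = 4) of it in Fluo-4 normal fibers. In Young and Fluo-4 abnormal fibers Psmb8 was at 0.268 ± 0.144% and 0.409 ± 0.254% of Psmb5. Psmb6 was at 444 to 615 TPM, and Psmb9 reached at most 0.204% of it, in a Young sample. Psmb10, the third inducible subunit, was at 20.5 to 32.5 TPM and thus more abundant than Psmb8 and Psmb9 in every sample. Its level relative to Psmb7 was 11.6 ± 1.15% in Young, 12.2 ± 1.75% in Fluo-4 normal and 9.07 ± 0.963% in Fluo-4 abnormal fibers.

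**Figure D3:**
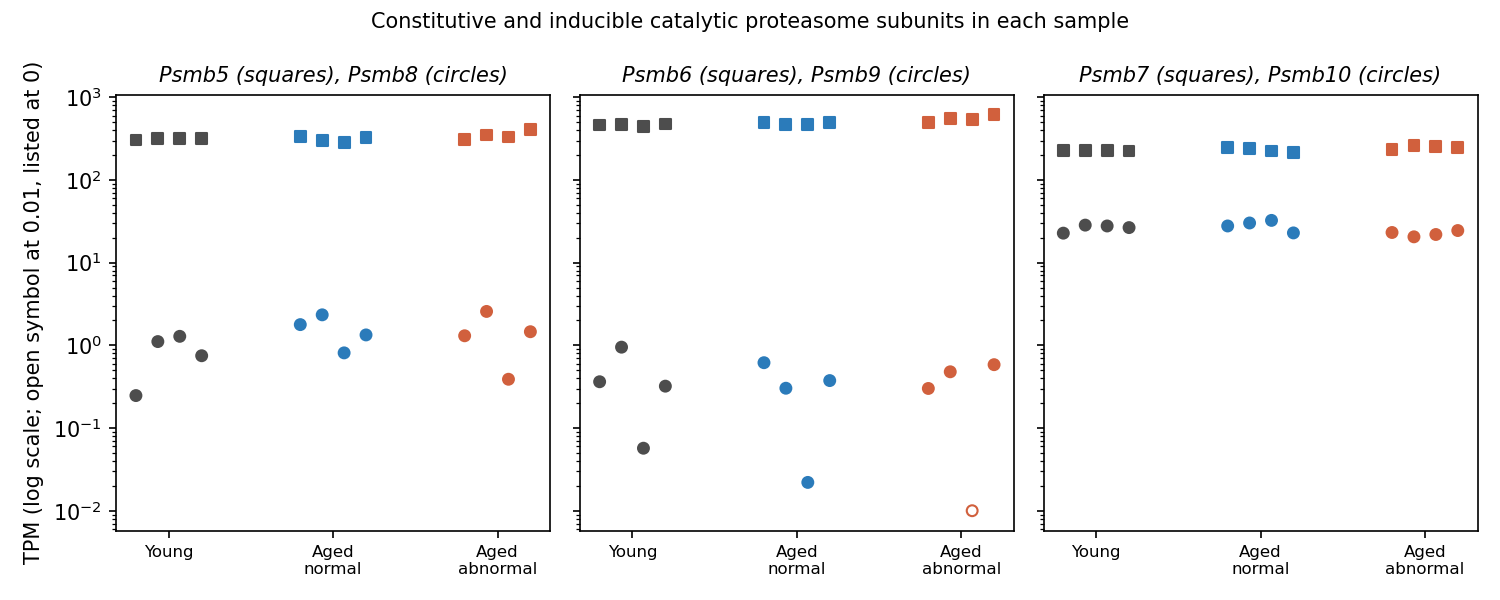
Level in TPM (log axis) of the constitutive catalytic proteasome subunits (squares) and the inducible subunits that replace them (circles) in each sample of the 3 groups, with an open circle at the bottom for the sample listed at 0. Psmb8 and Psmb9 lie at or below 2.57 TPM throughout, Psmb10 between 20.5 and 32.5 TPM, and the constitutive subunits at 217 TPM or more.

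Ratios between genes of 1 sample do not move with the scaling of that sample. Of 18 ratio tests, 2 reached 0.0286, the smallest p that an exact two-sided permutation test of 4 against 4 samples allows, and none passed adjustment over the 18. Psmb10/Psmb7 was lower in every Fluo-4 abnormal sample (7.94 to 9.92%) than in every Fluo-4 normal sample (10.5 to 14.5%), with an exact permutation p of 0.0286 and an adjusted p of 0.257. H2-K1/B2m was higher in every Fluo-4 abnormal sample (78.4 to 92.2%) than in every Young sample (51.6 to 73.2%), with the same exact p and adjusted p. H2-D1/B2m was 62.3 ± 7.82% in Young and 69.5 ± 7.67% in Fluo-4 abnormal fibers (exact permutation p = 0.257, adjusted p = 0.579). Tap1/Tap2 was 4.34 to 105% in Young and 0 to 13.0% in Fluo-4 abnormal fibers (exact permutation p = 0.200, adjusted p = 0.514), and for Psmb8/Psmb5 and Psmb9/Psmb6 the exact permutation p was at least 0.114 in each comparison.

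Other genes of the pathway were counted in lists that leave out the 8 members. Of all 14428 genes, 3693 had an unadjusted p under 0.05 between the aged groups, 3323 in Fluo-4 abnormal against Young and 1866 in Fluo-4 normal against Young, and counts at this threshold are to be read against these. Of 6 genes of peptide loading, 3 rose in Fluo-4 abnormal against Fluo-4 normal fibers and the same number against Young. In Fluo-4 normal against Young, 0 of 6 were called. The numbers at an unadjusted p under 0.05 were 3, 5 and 1 of 6 in these comparisons, in that order. Of all genes, 7.36% were called as higher between the aged groups and 6.09% in Fluo-4 abnormal against Young. The median difference of the 6 between the aged groups was 0.41, against 0.10 for all genes. Calr, the chaperone calreticulin, was at 88.8, 135, 113 and 122 TPM in Fluo-4 abnormal fibers and at 57.2, 73.2, 69.1 and 75.7 TPM in Fluo-4 normal fibers, a difference of 0.72 ± 0.12 (adjusted p = 0.00430). Pdia3, the oxidoreductase ERp57 of the loading complex, was at 23.5, 25.6, 21.3 and 24.1 TPM against 11.7, 15.2, 15.7 and 16.8 TPM, a difference of 0.64 ± 0.12 (adjusted p = 0.00586). In both genes all 4 Fluo-4 abnormal samples lay above all 4 Fluo-4 normal samples. The third gene called was Canx (calnexin), and all 3 also fold other glycoproteins of the endoplasmic reticulum. The rest of the list was not called between the aged groups. Tap2 differed by 0.17 ± 0.18 (adjusted p = 0.588), Tapbpl by 0.14 ± 0.20 (adjusted p = 0.696) and Erap1 by 0.09 ± 0.21 (adjusted p = 0.823). From Young, Tap2 differed by 0.62 ± 0.18 in Fluo-4 abnormal (limma adjusted p = 0.0506) and 0.45 ± 0.18 in Fluo-4 normal fibers (adjusted p = 0.296). It lay above every Young sample in each aged group, only just in Fluo-4 normal fibers (1.527 against 1.518 TPM). Of all genes, 12.2% lay wholly higher in Fluo-4 abnormal and 3.03% in Fluo-4 normal fibers. In the same order, Tapbpl differed from Young by 0.51 ± 0.20 and 0.37 ± 0.20, without a call.

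Of 29 further class I heavy chain genes, 16 were tested and 7 of them had a mean of at least 1 TPM in a group. Mr1, which presents vitamin B metabolites to a specialized class of T cells and is encoded outside the major histocompatibility complex, was at 9.44, 13.9, 10.6 and 12.6 TPM in Young fibers. It was at 10.7, 15.0, 14.2 and 15.6 TPM in Fluo-4 normal and 19.6, 21.5, 20.4 and 22.1 TPM in Fluo-4 abnormal fibers. All Fluo-4 abnormal samples were above all the others, and Mr1 rose between the aged groups by 0.57 ± 0.13 (adjusted p = 0.0184). The call was lost with median-ratio scaling (0.39, adjusted p = 0.0643) and without Fluo-4 abnormal replicate 2 (adjusted p = 0.0549), in a range of 0.00910 to 0.0643 over 22 alternatives. Mr1 was 1 of 2 genes of the list called against Young in Fluo-4 abnormal fibers, with H2-T24, which was at 0.175 to 0.354 TPM there. No gene of the list was called in Fluo-4 normal against Young, where 5 of 16 had an unadjusted p under 0.05, Fcgrt among them as lower. Fcgrt, the neonatal Fc receptor and also a partner of B2m, was at 27.7 to 34.5 TPM in Young, 14.1 to 26.2 TPM in Fluo-4 normal and 21.7 to 27.7 TPM in Fluo-4 abnormal fibers. Every aged sample lay below every Young sample, but only just in Fluo-4 abnormal fibers (highest 27.736 TPM, lowest Young sample 27.746 TPM). The share of all genes that lay wholly lower was not counted. The differences of -0.64 ± 0.15 in Fluo-4 normal (adjusted p = 0.0600) and -0.27 ± 0.15 in Fluo-4 abnormal fibers (adjusted p = 0.297) had the opposite sign to those of B2m, H2-K1 and H2-D1 and did not pass. Between the aged groups Fcgrt differed by 0.36 ± 0.15 (adjusted p = 0.142), which passed in 1 of 22 alternatives, without Fluo-4 normal replicate 4 (0.51, adjusted p = 0.0329, in a range of 0.0329 to 0.588).

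Of 8 further proteasome genes, 1 rose and 1 fell between the aged groups, and 4 had an unadjusted p under 0.05. Of all 14428 genes, 7.36% were called as higher in this comparison and 287 genes as lower. Pomp, which assembles the catalytic core, rose by 0.25 ± 0.06 (adjusted p = 0.0218), from 123 to 131 TPM in Fluo-4 normal to 139 to 160 TPM in Fluo-4 abnormal fibers. Under median-ratio scaling its difference was 0.06 (adjusted p = 0.660, the highest of 22 alternatives, the lowest being 0.0163), and the call was also lost when values were rescaled without mitochondrially-encoded genes (0.0891), with only the groups compared (0.0715) and without Fluo-4 normal replicate 2 (0.0567) or Fluo-4 abnormal replicate 2 (0.0707). Psme1, a subunit of the interferon-inducible PA28 activator, fell by 0.48 on the log2 scale (SE 0.13, adjusted p = 0.0311), from 28.9 to 40.1 TPM to 19.5 to 29.5 TPM, and the groups overlapped. The call of Psme1 was lost with only the groups compared (adjusted p = 0.0804), without Fluo-4 normal replicate 1 (adjusted p = 0.0839) or 4 (0.0810), and without Fluo-4 abnormal replicate 2 (0.0786), 3 (0.0805) or 4 (0.0537), in a range of 0.00675 to 0.0839 over 22 alternatives. Against Young, Pomp and Psmb6 rose in Fluo-4 abnormal fibers, where 5 of 8 had an unadjusted p under 0.05 and 6.09% of all genes were called as higher. In Fluo-4 normal fibers 0 of 8 were called against Young, and 1 had an unadjusted p under 0.05.

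Of 27 genes of class I regulation and interferon signaling, Jak1 and Jak2 rose between the aged groups and none fell, where 7.36% of all genes were called as higher. Jak1, a kinase of all interferon receptors, was at 68.1, 79.1, 60.3 and 61.3 TPM in Fluo-4 abnormal against 32.2, 49.8, 42.0 and 40.2 TPM in Fluo-4 normal fibers, a difference of 0.71 ± 0.13 (adjusted p = 0.00683). Its level in Young fibers was 46.8 to 63.4 TPM, between those of the aged groups with overlap on both sides. Jak2, the partner of Jak1 at the interferon gamma receptor, was at 13.0 to 16.9 TPM in Fluo-4 abnormal, 8.40 to 10.6 TPM in Fluo-4 normal and 13.9 to 20.3 TPM in Young fibers, and the aged groups differed by 0.55 ± 0.13 (adjusted p = 0.0190). The call of Jak2 was lost with median-ratio scaling (adjusted p = 0.0546) and without Fluo-4 abnormal replicate 2 (0.0588) or 3 (0.0553), in a range of 0.0115 to 0.0588 over 22 alternatives. Jak2 was called lower in Fluo-4 normal than in Young fibers, and Tyk2 was the only gene of the list called in Fluo-4 abnormal against Young. Nlrc5, the transactivator of class I genes, was at 0 to 0.160 TPM in the 12 samples.

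Of 49 interferon-stimulated genes, 47 were tested. None was called between the aged groups, where 3 had an unadjusted p under 0.05 (13 in Fluo-4 normal against Young and 5 in Fluo-4 abnormal against Young). Isg15, a ubiquitin-like protein, was at 0.714, 3.66, 0.221 and 0.985 TPM in Fluo-4 normal and 0.478, 0.311, 0 and 0.080 TPM in Fluo-4 abnormal fibers, a difference of -0.80 ± 0.33 (adjusted p = 0.143) with overlap of the groups. Gbp6, an interferon-induced GTPase, was at 2.44 to 5.05 and 1.10 to 3.09 TPM, a difference of -0.48 ± 0.23 (adjusted p = 0.201). Against Young, 1 rose and 1 fell in each aged group, where 6.09% (Fluo-4 abnormal) and 0.561% (Fluo-4 normal) of all genes were called as higher. Cxcl10 rose and Gbp7 fell in Fluo-4 abnormal fibers, and Gbp6 rose and Gbp7 fell in Fluo-4 normal fibers. The median difference of the 47 from Young was 0.16 in Fluo-4 abnormal and 0.20 in Fluo-4 normal fibers, against 0.07 and -0.02 for all genes. Differences from Young were above 0 for 36 and 38 of the 47. Between the aged groups the median was -0.09, against 0.10 for all genes, and 17 of 47 were above 0.

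Of 10 genes of class II presentation, 8 were tested and none was called in any comparison, with 0, 0 and 1 at an unadjusted p under 0.05 between the aged groups, in Fluo-4 abnormal against Young and in Fluo-4 normal against Young. H2-DMa, which edits the peptides of class II, was at 1.09 to 4.16 TPM over the 12 samples, and the class II chain H2-Ab1 was at 0.179 to 2.95 TPM.

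**Figure D4:**
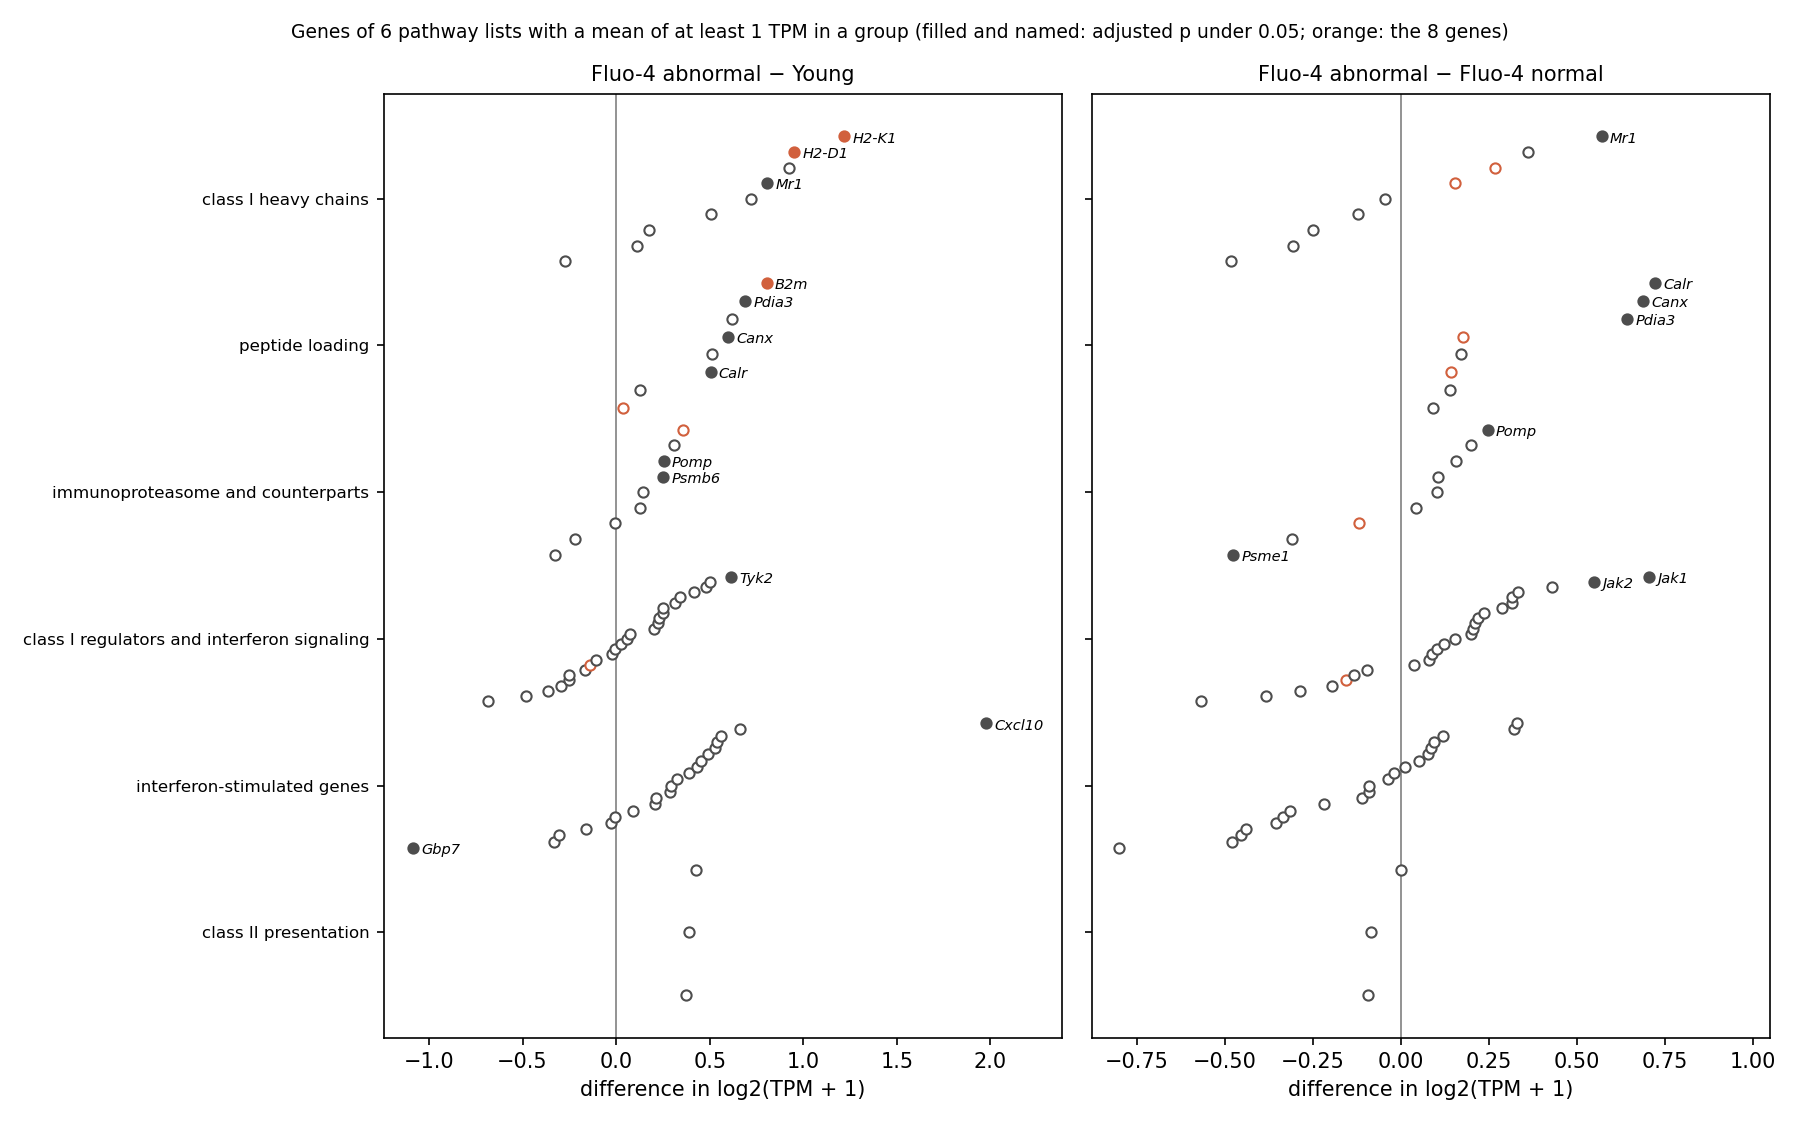
Difference in log2(TPM + 1) of each gene with a mean of at least 1 TPM in a group, in 6 pathway lists (rows, the 8 members included, in orange), for Fluo-4 abnormal against Young (left) and against Fluo-4 normal (right), with filled and named points where the adjusted p is under 0.05. H2-K1, H2-D1 and B2m are among the filled points on the left, where the comparison is with Young, and on the right the filled points are Mr1, Calr, Canx, Pdia3, Pomp, Psme1, Jak1 and Jak2.

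Markers of other cell types were measured beside the class I genes, since cells such as endothelium and macrophages carry much class I. The 8 myofiber genes summed to 128867 to 131449 TPM in Young, 114272 to 133219 TPM in Fluo-4 normal and 133849 to 153499 TPM in Fluo-4 abnormal fibers. All Fluo-4 abnormal samples thus lay above all the others, and Myh4 was the gene called between the aged groups, as higher. The summed level of 16 immune markers was 1.96 to 3.19 TPM in Young, 6.89 to 24.1 TPM in Fluo-4 normal and 10.2 to 19.4 TPM in Fluo-4 abnormal fibers, so that this sum, like H2-K1, was higher in every aged sample than in every Young sample. Lyz2, a lysozyme of macrophages and neutrophils, was the gene called in both comparisons with Young, at 0.269 to 1.04 TPM in Young, 4.58 to 13.8 TPM in Fluo-4 normal and 6.69 to 10.5 TPM in Fluo-4 abnormal fibers. Without Lyz2 the sums were 1.04 to 2.15, 1.44 to 10.3 and 3.38 to 9.56 TPM. Cd3e was called in Fluo-4 abnormal against both other groups. Of the 14 immune markers tested, 13 had a difference from Young above 0 in Fluo-4 abnormal and 11 in Fluo-4 normal fibers. The macrophage marker Cd68 had a mean of 0.282 TPM in both Young and Fluo-4 normal and 1.04 TPM in Fluo-4 abnormal fibers. Csf1r, the receptor for a macrophage growth factor, was at 0 to 0.014 TPM in Young, 0.006 to 0.385 TPM in Fluo-4 normal and 0 to 0.141 TPM in Fluo-4 abnormal fibers. The complement gene C1qa was at most 0.110, 0.680 and 0.212 TPM in these groups, and C1qb at most 0.145, 1.31 and 0.784 TPM. All 4 Young samples were at 0 for 5 of the 16 markers, and all samples of an aged group for 2. Itgam was at 0 in all 12 samples, Ptprc (CD45) at 0 in the 4 Young samples and at most 0.262 TPM in the aged ones, and Adgre1 (F4/80) at most 0.011 TPM. The part of immune cells in the higher class I levels was not tested.

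The 12 endothelial markers summed to 19.9 to 38.9 TPM in Young, 35.9 to 103 TPM in Fluo-4 normal and 13.0 to 49.95 TPM in Fluo-4 abnormal fibers, and 0 of 12 were called in any comparison. The numbers at an unadjusted p under 0.05 were 0 between the aged groups, 1 in Fluo-4 abnormal against Young and 4 in Fluo-4 normal against Young. Fluo-4 normal replicate 2 had the highest endothelial sum of the 12 samples. It also had the highest immune (24.1 TPM), fibroblast (85.2 TPM) and erythroid (482 TPM) sums, so leaving it out does not isolate endothelial cells. Without this sample H2-K1 differed from Young by 0.88 in the Fluo-4 normal group (adjusted p = 0.0409, in a range of 0.00425 to 0.0490 over 21 alternatives). The differences from Young were above 0 for 11 of 12 endothelial markers in Fluo-4 normal (median 0.47) and 9 of 12 in Fluo-4 abnormal fibers (median 0.16). The part of endothelial cells in the class I levels was not tested. Of the other lists, fibroblast (9 genes), satellite cell (6), smooth muscle and pericyte (7) and erythroid (5) markers had no call in any comparison. Of the fibroblast markers, 4 had an unadjusted p under 0.05 in Fluo-4 abnormal against Young, where 5 of 9 differences were above 0. Of the satellite cell markers, 2 did so between the aged groups. The erythroid markers summed to 33.1 to 121 TPM in Young, 119 to 482 TPM in Fluo-4 normal and 44.4 to 236 TPM in Fluo-4 abnormal fibers. In Fluo-4 normal against Young, 5 of 5 had a difference above 0 with a median of 1.13, 2 of them at an unadjusted p under 0.05, and their part in the class I levels was not tested. Mbp and Sox10, of 5 Schwann cell markers, rose in Fluo-4 abnormal against Young, and the 4 adipocyte markers were at 0 in all samples. The Schwann cell markers summed to 0.773 to 1.90 TPM in Young, 1.54 to 6.53 TPM in Fluo-4 normal and 3.67 to 7.63 TPM in Fluo-4 abnormal fibers. Every Fluo-4 abnormal sample thus lay above every Young sample in this sum, and its part in the class I levels was not tested.

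**Figure D5:**
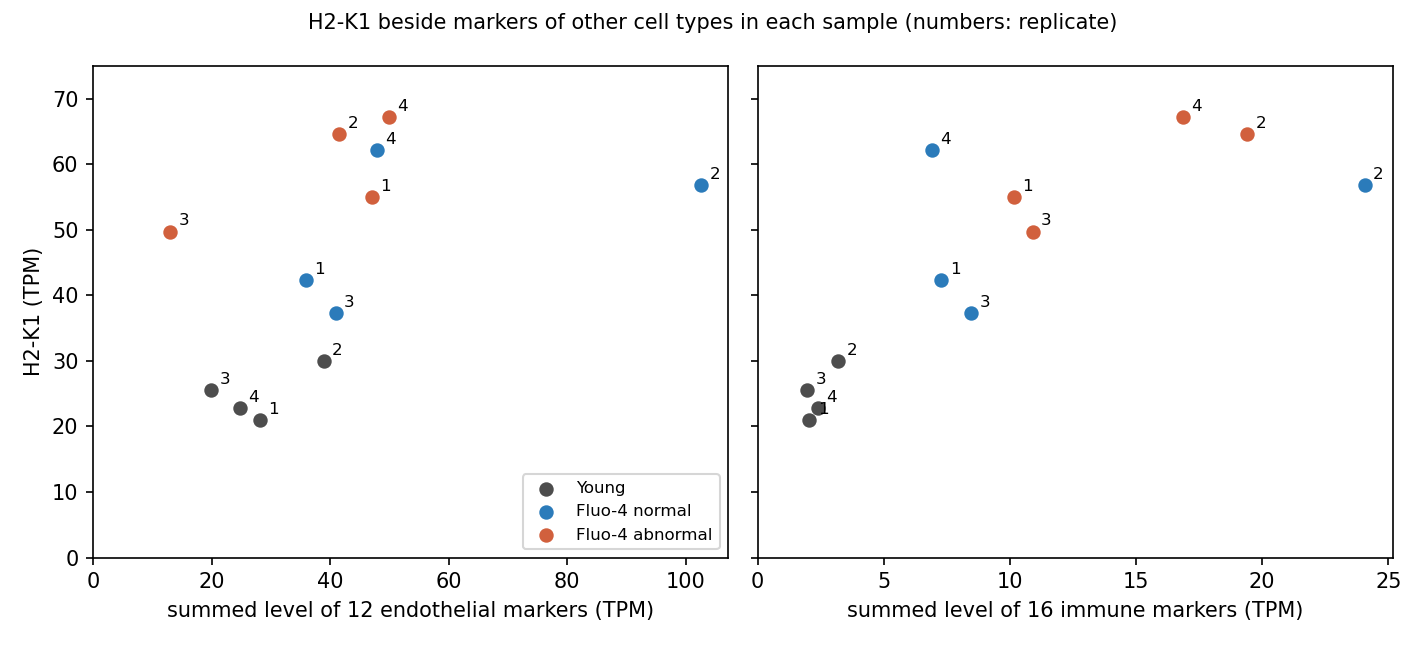
H2-K1 level in TPM (vertical axis) against the summed level in TPM of 12 endothelial markers (left) and 16 immune markers (right) in each sample, with the replicate number beside each point. The endothelial sums of both aged groups overlap those of the Young samples, and all aged samples lie above all Young samples in immune sum.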

How the data were processed

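Per the labels and the study's methods, 10 ng of total RNA per sample was made into full-length cDNA libraries (SMART-Seq v4) and reads were aligned to GRCm39 with DRAGEN 4.3, and the authors deposited 1 table of TPM values per sample. The annotation release is not given in the sources used here. The 8 genes and all lists were chosen with earlier results of these data known. TPM was tested as log2(TPM + 1) with limma 3.58.1 (R 4.3.3; variance trend, 12 samples, 3 groups) over 14428 protein-coding and mitochondrially-encoded genes with a mean of at least 0.02 TPM in a group, a test checked on simulated data. Ratios were tested by exact permutation over 70 arrangements, on the log2 scale, or in percent where a numerator was listed at 0 (Psmb9/Psmb6, Tap1/Tap2), which departs from the design fixed at first.

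Named beside the 8 genes were the 2 of each list with the smallest p between the aged groups (mean of at least 1 TPM), the ratios' partner genes and the 5 nearest patterns. Other genes (H2-T24, H2-Q4, H2-Q6, H2-Q7, H2-T23, Canx, Tapbpl, Erap1, Tyk2, Cxcl10, Gbp7, Nlrc5 and the cell type markers) were named after their values were seen. Aged samples with the same replicate number deviated together (correlations of 0.30 to 0.44 over 5994 genes, against -0.36 to 0.23 for other pairs), so the numbers were taken to pair them, a hint from the data only. Alternatives changed the pseudocount, filter, scaling, gene set, variance model, sample weights, block or samples. Transcripts were compared with BLAST 2.17.0. The result of 1 further motif search is not reported here.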

Additional observations from a re-analysis of the deposited data

Results flagged for a closer look

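In 24 groups of 4 values (8 genes in 3 groups) 2 samples stood apart from the rest of their group, where chance flags about 1 group in 20. Tap1 was listed at 0.000 TPM in Fluo-4 abnormal replicate 3, far from the 0.196 to 0.215 TPM of the other 3 samples. That sample had the fewest genes above 0 of the 12 (16841) and the lowest B2m, H2-K1, H2-D1, Psmb8 and Psmb9 of its group. Irf1 was at 16.960 TPM in Fluo-4 abnormal replicate 2, far above the 4.71 to 6.40 TPM of the other 3, and Fluo-4 normal replicate 2 had 16.9 TPM.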

How the results depend on the processing

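H2-K1 was called in 21 of 21 alternatives in each comparison with Young (0.84 to 1.31), and H2-D1 in 21 of 21 for Fluo-4 abnormal against Young. No member was called between the aged groups under any of 22 alternatives. With the replicate block the difference of H2-K1 between the aged groups was 0.27 (adjusted p = 0.0542, in a range of 0.0542 to 0.824), and the block changed no member's call. Members called in Fluo-4 normal against Young rose from 1 to 2 with the filter of 1 TPM, median-ratio scaling and sample quality weights, and were 1 to 2 when single samples were left out. Psmb9 and Tap1 have no value with the filter of 1 TPM, which they fail. Signs also changed for values that were not called, and the cause was not tested. Between the aged groups median-ratio scaling gave -0.0083 for B2m, -0.0293 for H2-D1, -0.0423 for Psmb9, -0.0308 for Tapbp, -0.028 for Psmb5 and -0.0796 for Psmb7. Psmb9 was -0.0191 with a pseudocount of 0.1 and -0.0041 without mitochondrially-encoded genes, and H2-DMa was 0.0025 with sample weights. Tapbp against Young in Fluo-4 abnormal fibers was -0.0614 with median-ratio scaling, and Irf1 in Fluo-4 normal fibers was -0.0077 with a pseudocount of 0.1. Leaving out single samples gave, between the aged groups, -0.0175 to 0.3433 for B2m, -0.3313 to 0.123 for Psmb8, -0.1096 to 0.1444 for Psmb9, -0.5227 to 0.1567 for Irf1, -0.1838 to 0.0764 for H2-DMa and -0.2851 to 0.2648 for H2-Ab1. In Fluo-4 abnormal against Young it gave -0.2023 to 0.0925 for Psmb9, -0.0548 to 0.1101 for Tapbp and -0.5068 to 0.0446 for Irf1. In Fluo-4 normal against Young it gave -0.2127 to 0.082 for Psmb9 and -0.2966 to 0.3624 for Irf1. Calr, Pdia3 and Jak1 were called in 22 of 22 alternatives between the aged groups, Jak2 in 19, Pomp in 17 and Psme1 in 16. TPM carries no read totals, so low genes such as Psmb9 and Tap1 cannot be given a counting error.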
